A study of Mus musculus with 96 samples.

Results

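The cells described here are the 24 single cells, of 96 sequenced, that scored highest for 6 genes of squamous differentiation, Cnfn, Sprr3, Serpinb2, Psca, Cpa4 and Tgm1. The score of a cell was the mean over these genes of log2(CPM + 1), where CPM is the count of a gene per 1000000 counts on all mouse genes of that cell. Both the 6 genes and the cutoff were selected on measured values of these cells, so that their levels are given as a description, and the other 72 cells serve as the comparison. All 96 cells came from 1 condition. They were the daughter cells of 48 divisions of wild-type horizontal basal cells (HBCs), taken from adult mice 2 days after methimazole injury of the olfactory epithelium (OE), cultured on Tropoelastin and then Fibronectin, and collected as pairs. Polyadenylated RNA of each cell, to which ERCC spike-in RNA had been added, was sequenced after the G&T-seq protocol. The labels name no mouse and no dish, so that the cells form a single sample without biological replicates, every SD is a spread over cells, and no p-values were computed.

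HBCs are the quiescent stem cells of the OE and resemble the basal cells of stratified epithelia in their keratins and in their dependence on p63. In a squamous epithelium, cells that leave the basal layer switch on genes for a cornified envelope, a sheath of crosslinked protein under the plasma membrane. Transglutaminase 1 (Tgm1) makes the crosslinks, small proline-rich proteins (the Sprr genes) and cornifelin (Cnfn) are among the substrates, and ceramides made in the same cells form the lipid seal. Serpinb2 (plasminogen activator inhibitor type 2) is a serpin of stressed and differentiating keratinocytes, Psca is a GPI-anchored surface protein, and Cpa4 is a secreted carboxypeptidase. The OE itself is not cornified, and its supporting cells are known instead for a high content of detoxifying enzymes.

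The 6 genes did not mark the 24 cells evenly. Tgm1 (chromosome 14, 55700009 to 55713926, GRCm38) reached 10 CPM in 22 of the 24 cells, with a lowest value of 0 CPM, a median of 150.04 CPM and a highest of 1784 CPM. Serpinb2 (chromosome 1, 107511423 to 107535478) reached 10 CPM in 20 cells and ranged from 0.362 to 1584 CPM around a median of 176.7 CPM. Cnfn (chromosome 7, 25367620 to 25369724) reached it in 17 cells, with a median of 35.8 CPM and a highest value of 9433 CPM. Psca (chromosome 15, 74714839 to 74717069) reached it in 15 cells, with a median of 21.6 CPM and a highest of 2588 CPM. The last genes were rare: Cpa4 (chromosome 6, 30568369 to 30592418) reached 10 CPM in 4 cells, which were the 4 of highest score, and Sprr3 (chromosome 3, 92456502 to 92458720) in 3 cells, 46-1, 4-1 and, at 16.5 CPM, the cell of rank 13. In the other 72 cells, 18 reached 10 CPM for Tgm1, 19 for Serpinb2, 2 for Cnfn, 7 for Psca, 0 for Cpa4 and 2 for Sprr3. All 6 genes passed the filter of 10 counts in at least 10% of cells that was used for every gene compared below.

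The label of a squamous programme therefore held in full for few cells. All 6 genes reached 10 CPM together in 2 cells and 5 of them in 2 further cells, whereas 9 cells had 3 of the genes and 6 cells had 2. The other 72 cells had at most 3, and 34 of them had none. Cell 46-1 (daughter 1 of pair 46) scored 10.35 and cell 4-1 scored 10.18, followed by 46-2 with 7.50 and 24-1 with 6.15, and the next cell with 4.96. Cells 46-1 and 4-1 together held 99.3% of all Sprr3 CPM and 84.5% of all Cnfn CPM summed over the 24 cells, but 36.0% of Tgm1 and 31.2% of Serpinb2. Below the first 4 cells, the group is a range of cells that rests mainly on Tgm1, Serpinb2 and Cnfn, and it is called the high-score cells in what follows.

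**Figure D1:**
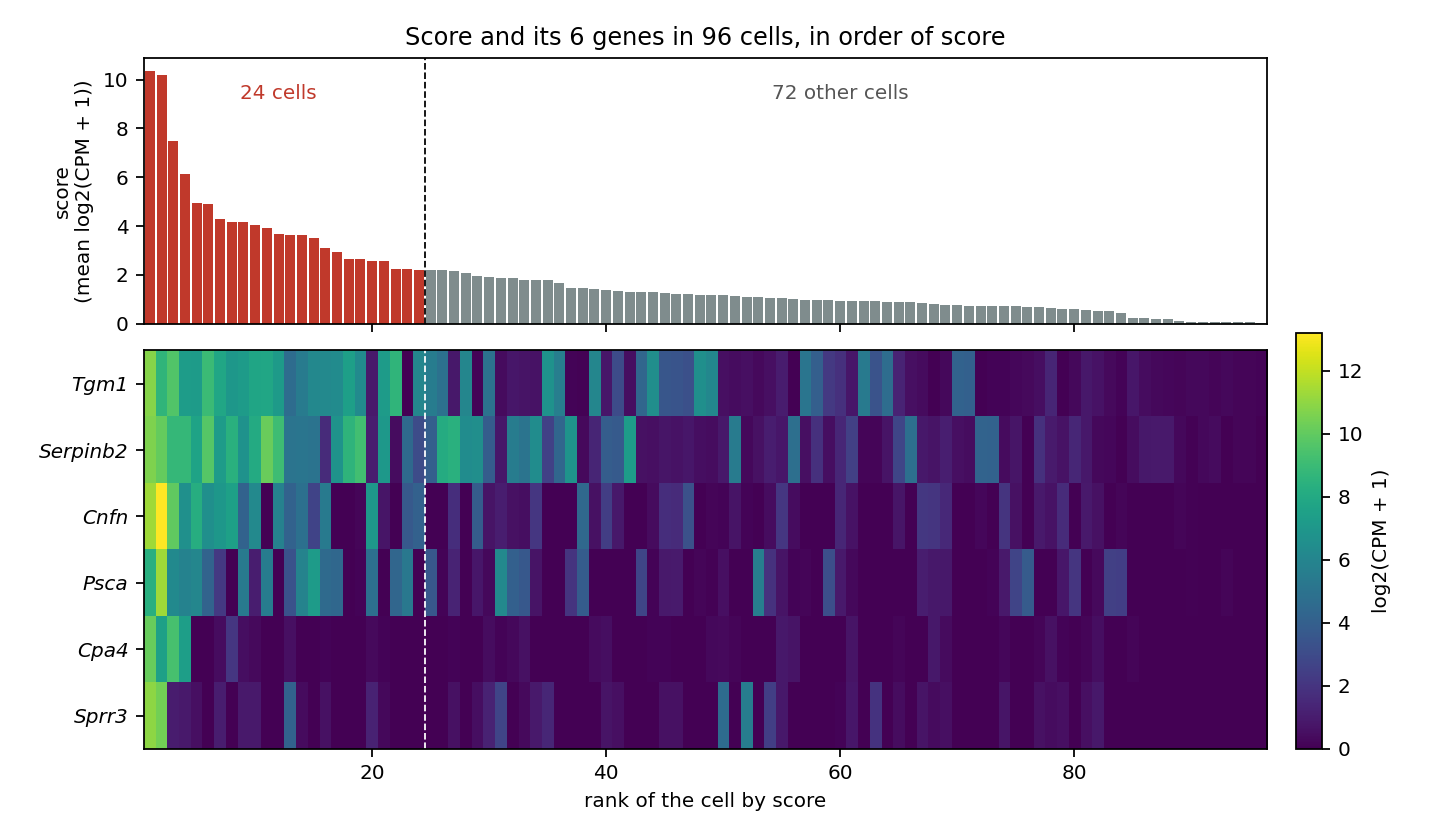
Score (upper panel, mean log2(CPM + 1) of the 6 genes) and the level of each gene (lower panel, colour, log2(CPM + 1)) in all 96 cells, ordered from the highest to the lowest score, with the dashed line between rank 24 and rank 25. Tgm1 and Serpinb2 are spread over most of the 24 cells, Cnfn and Psca over part of them, and Cpa4 is seen in 4 cells and Sprr3 in 3 cells at 10 CPM or more.

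Rank correlations of the score genes within the 24 cells, which the selection also used, joined Cnfn to the rare genes more than to the frequent ones. Spearman's rho across the 24 cells was 0.81 for Sprr3 with Cpa4, 0.67 for Cnfn with Sprr3, 0.68 for Cnfn with Cpa4 and 0.63 for Serpinb2 with Tgm1. It was 0.38 for Cnfn with Psca, 0.32 for Cnfn with Serpinb2, 0.30 for Cnfn with Tgm1, 0.13 for Serpinb2 with Psca and 0.09 for Sprr3 with Serpinb2. These values describe cells that include both members of 8 pairs, and most cells had counts of Sprr3 and Cpa4 at or near 0.

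The promoters are shown because AP-1 factors are known regulators of envelope genes in keratinocytes, and because they let the score genes be set beside genes found later. In the 250 bases before the RefSeq start sites (GRCm38.p6), the AP-1 motif TGANTCA, searched on both strands, was present in 2 of the 5 score genes with an entry (Psca had none), Serpinb2 and Cpa4, and in 4 of 15 among the 20 genes of largest positive difference below, Plet1, Sbsn, Sdcbp2 and Dhrs9. The share over all 27018 genes with an entry was 7.82%. The TATA box motif TATAAA was present in Serpinb2, Cpa4 and Sprr3, against 14.3% of all genes. It was also present in 2 of the 15 genes of largest positive difference with an entry and in 3 of 7 among the 12 of largest negative difference (Adh7, Cx3cl1 and Otx2), and AP-1 in 1 of those 7 (Adh7). The motif of Serpinb2 (at the more upstream of its RefSeq starts) began 94 bases before the start site, that of Cpa4 10 bases before, that of Plet1 144 bases before and that of Sbsn 119 bases before. Such a match is a string of letters and not a measured binding site, and binding was not measured here. These windows, 5′ to 3′ on the strand of the gene with the AP-1 motif in capitals, are chr1:107511173-107511422 (+) for Serpinb2, chr6:30568119-30568368 (+) for Cpa4, chr9:50494275-50494524 (+) for Plet1 and chr7:30751221-30751470 (+) for Sbsn.
Serpinb2: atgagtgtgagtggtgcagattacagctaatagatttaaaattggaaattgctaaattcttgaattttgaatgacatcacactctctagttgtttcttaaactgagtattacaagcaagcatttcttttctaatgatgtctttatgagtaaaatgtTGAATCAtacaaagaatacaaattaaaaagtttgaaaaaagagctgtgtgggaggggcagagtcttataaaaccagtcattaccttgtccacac
Cpa4: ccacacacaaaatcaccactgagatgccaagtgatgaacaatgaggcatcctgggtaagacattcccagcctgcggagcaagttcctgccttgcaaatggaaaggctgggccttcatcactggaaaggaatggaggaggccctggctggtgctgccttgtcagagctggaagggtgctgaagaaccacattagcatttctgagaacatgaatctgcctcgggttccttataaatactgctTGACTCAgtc
Plet1: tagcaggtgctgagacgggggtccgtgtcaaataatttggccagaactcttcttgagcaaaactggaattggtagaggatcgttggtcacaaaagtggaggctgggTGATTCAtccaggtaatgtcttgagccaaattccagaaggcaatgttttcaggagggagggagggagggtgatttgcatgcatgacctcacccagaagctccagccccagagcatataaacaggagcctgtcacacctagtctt
Sbsn: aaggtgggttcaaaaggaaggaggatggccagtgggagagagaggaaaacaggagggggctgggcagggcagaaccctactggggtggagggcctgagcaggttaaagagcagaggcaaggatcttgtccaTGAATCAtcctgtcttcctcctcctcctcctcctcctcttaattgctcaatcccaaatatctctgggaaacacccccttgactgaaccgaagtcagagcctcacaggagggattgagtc

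The cutoff fell in a continuum. The last cells inside it, 7-2 and 25-1, scored 2.24 and 2.204, and the first cells outside it, 27-1 and 21-1, both scored 2.19. Within 0.25 of the cutoff lay 3 of the 24 high-score cells and 5 of the 72 others. The scores were 4.26 ± 2.24 (mean ± SD, n = 24 cells) inside and 0.99 ± 0.58 (n = 72 cells) outside, a separation that follows from the selection.

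High scores came in pairs. In 8 of the 48 sister pairs both cells were among the 24 (pairs 5, 8, 10, 16, 24, 40, 41 and 46), in 8 pairs 1 cell was (pairs 3, 4, 6, 7, 22, 25, 44 and 47, called split pairs here), and in 32 pairs neither was. Thus 16 of the 24 high-score cells had a high-score sister, whereas 8 of the 72 other cells did. The intraclass correlation of the score over the 48 pairs was 0.62, and 0.67 without pairs 4 and 46, which held the 3 highest cells. Of the 8 split pairs, 5 had a lower cell within 1 unit of the cutoff. The difference between the cells of a split pair ranged from 0.51 to 8.29 with a median of 1.51. Sister cells also share the set of 8 cells in which their data were deposited: set 2 held 6 high-score cells, sets 5, 8 and 9 held 0, and each of the remaining 8 sets held 1 to 3. The part of the sets in the pairing was not tested.

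**Figure D2:**
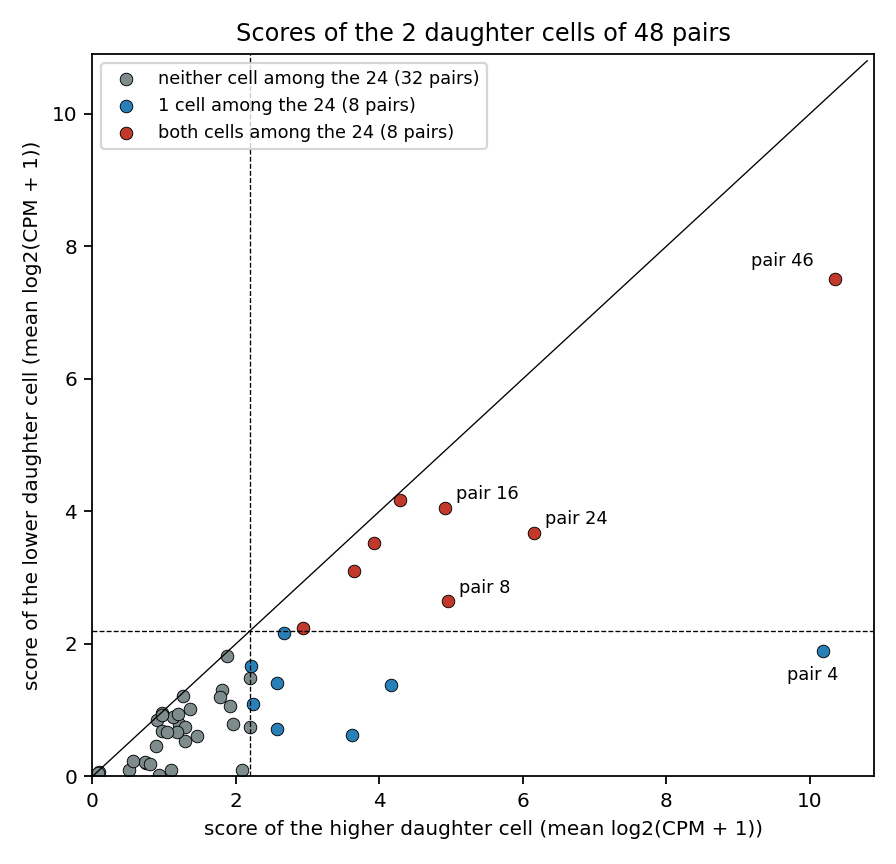
Score of the higher daughter cell (x axis) against that of the lower daughter cell (y axis), both as mean log2(CPM + 1), for 48 pairs, with the cutoff as dashed lines and equality as the solid line. The 8 pairs with both cells high lie in the upper right field, and pair 4, with scores of 10.18 and 1.89, is the most unequal.

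To find what else distinguished the high-score cells, the mean log2(CPM + 1) of the 24 cells was compared with that of the 72 others for 14463 genes. In this comparison 456 genes (3.15%) were higher by 1 or more and 356 genes (2.46%) were lower by 1 or more, and the median difference over all genes was -0.02. The libraries were of similar depth, with 32434359 to 44849003 counts on genes in the high-score cells and 29454150 to 43651021 in the others, and 12936 ± 487 against 12917 ± 639 genes detected per cell. ERCC transcripts took 2.77% ± 0.61 of the counts in the high-score cells and 3.31% ± 0.97 in the others, and the counts on genes per unit of spike-in, relative to the median cell, were 1.13 ± 0.23 and 0.99 ± 0.35. Scaled to the spike-in, the median gene differed by 0.10, and 679 genes were higher and 253 lower, which made 72.9% of the called genes higher against 56.2% on CPM. Differences below are on CPM and relative to the total of each cell. Without cells 46-1, 46-2 and 4-1, 499 genes were higher and 334 lower, of which 373 and 273 were also called with all 24 cells.

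The 20 genes with the largest positive differences outside the score were of mixed function. Plet1, a surface protein known from placenta and hair follicle progenitors, had 0.272 to 1249 CPM in the high-score cells around a median of 247.7 CPM, and 0 to 202.3 CPM around a median of 14.1 CPM in the others. Its mean log2(CPM + 1) was 7.08 ± 2.60 against 3.21 ± 2.65, a difference of 3.87, and 22 of the 24 cells lay above the median of the 72. Sbsn (suprabasin), a secreted protein of suprabasal keratinocytes, had a median of 57.1 CPM and a highest value of 771.3 CPM, against 0.704 and 106.6 CPM, a difference of 3.17. Within the 24 cells, whose score was used to pick these genes, Spearman's rho with the score was 0.67 for Plet1 and 0.60 for Sbsn.

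Among the others of these 20 genes, Tmprss11e, a transmembrane serine protease, differed by 3.31, with a median of 27.5 CPM against 0.119 CPM. Cers3, the ceramide synthase of epidermal barrier lipids, differed by 3.15 and reached 10 CPM in 23 of the 24 cells. Cldn6, a claudin of tight junctions, differed by 3.09, with a median of 164.7 CPM against 0.515 CPM. Fst (follistatin), a secreted antagonist of activin, differed by 3.01, and Slc16a3, a lactate exporter, by 3.00. Krt16, a keratin of wounded and hyperproliferative epidermis, differed by 2.69, with 4.86 to 2089 CPM around a median of 87.6 CPM against 0.104 to 458.5 CPM around 21.1 CPM. In each of these genes the 2 groups of cells overlapped, although for each except Slc16a3 the highest value of all 96 cells was in a high-score cell.

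The remaining genes of this group were Kcnn4 (2.74), Cryab (2.72), Hcar2 (2.66), Sdcbp2 (2.63), Ccdc9b (2.44), Dhrs9 (2.40), Wnt7a (2.40), S100a7a (2.38) and Dusp5 (2.37), together with 3 Sprr2a genes. S100a7a, the mouse psoriasin gene, was expressed at 10 CPM or more in 12 of the 24 cells and 4 of the 72. Wnt7a, a Wnt ligand of stratified epithelia, reached 10 CPM in 12 and 4 cells. Over the 20 genes, Spearman's rho with the score among the 72 other cells had a median of 0.14 and was above 0 for 18. Among the 24 cells it had a median of 0.35 and was above 0 for 19. The 20 genes were picked with groups formed by this same score, and Sprr2a1 and Sprr2a2 count as separate genes. These values are therefore a description, and no share over all genes is set beside them.

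Small proline-rich proteins had the largest median difference of the gene lists on CPM, at 1.26, beside 1.02 for the wound-response keratins. This order depended on the setting. For the 32 highest cells the 2 medians were 1.27 and 0.60, and without cells 46-1, 46-2 and 4-1 they were 0.96 and 0.94. With a pseudocount of 10 they were 0.60 and 0.96, and without set 12 they were 0.92 and 1.13. The score genes are members of 0 lists. Beside the counts of list members below stand the shares over all 14463 genes, 3.15% higher and 2.46% lower by 1 or more. Of the 14 genes listed beside Sprr3, 9 passed the filter, 6 were higher by 1 or more and 0 lower, and the median difference was 1.26, beside -0.02 over all genes. Sprr2a3 differed by 3.24, Sprr2a1 and Sprr2a2 by 2.96 each, Sprr1a by 1.77, Sprr2b by 1.26 and Sprr1b by 1.14. Without cells 46-1, 46-2 and 4-1, Sprr2b differed by 0.96 and Sprr1b by 0.76. Sprr2e differed by -0.27 and Sprr2f by 0.02. Summed over the Sprr2a genes, the high-score cells had 176.0 to 37791 CPM around a median of 4890 CPM, and the others 13.1 to 64370 CPM around a median of 354.6 CPM. The ranges overlapped almost completely, and the highest value belonged to 4-2, the low sister of cell 4-1.

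The Sprr2a genes cannot be read as separate measurements. Sprr2a1 and Sprr2a2 are near-identical copies on chromosome 3, between which reads can be split, and their values in the 96 cells had a Pearson r of 1.00 on the log2 scale. Their annotated spans overlap, at 92215799 to 92221911 and 92215920 to 92256724, so the sum over the Sprr2a genes may hold the same signal repeatedly. The count of higher genes also takes Sprr2a1 and Sprr2a2 as separate genes. Their RefSeq promoters were identical in 250 of 250 bases, and are shown once for that reason, from chr3:92215585-92215834 (+), where the AP-1 motif was not found.
Sprr2a1: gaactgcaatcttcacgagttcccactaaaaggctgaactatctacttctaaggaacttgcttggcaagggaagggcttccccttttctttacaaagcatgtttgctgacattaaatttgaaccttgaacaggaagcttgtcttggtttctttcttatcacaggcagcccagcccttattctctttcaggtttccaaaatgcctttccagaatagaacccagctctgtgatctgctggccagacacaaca

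Other genes of the cornified envelope were higher only in part. Of 27 genes listed, 10 passed the filter, 3 were higher by 1 or more and 0 lower, with a median difference of 0.43. This median was 0.66 without set 2, 0.31 without cells 46-1, 46-2 and 4-1, and 0.15 with a pseudocount of 10. The 3 higher genes were Sbsn, Dmkn (dermokine, 2.19) and Evpl (envoplakin, a plakin of the envelope scaffold, 1.33). Ivl (involucrin, an early envelope substrate) differed by 0.21 and Lor (loricrin, the main late substrate) by -0.05. The late genes Flg and Lce1m had 10 counts in 0 cells, and the suprabasal keratins Krt1 and Krt2 failed the filter. Lor reached 10 counts in 7 of the 24 and 20 of the 72 cells, with at most 7.80 and 27.2 CPM. Suprabasal keratins had a median difference of 0.00 over 6 genes that passed, with 0 higher and 0 lower by 1. Krt10, the keratin of the first suprabasal layer of epidermis, differed by -0.00 and Krt13, the keratin of internal squamous epithelia, by 0.01. Asprv1, a protease of the granular layer that failed the filter, had 142.5 CPM in cell 4-1 and 22.8 CPM in cell 46-1, and Crct1, which also failed it, had 39.9 CPM in cell 46-1.

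Genes of barrier lipid synthesis were higher in the high-score cells for 5 of 19 genes that passed and lower for 0, with a median difference of 0.54. Besides Cers3, these were Abca12, the transporter that loads lamellar granules (2.27), Ugcg, which makes glucosylceramide (1.54), Elovl7, a fatty acid elongase (1.27), and Plin2, a lipid droplet coat protein (1.19, or 0.99 without cells 46-1, 46-2 and 4-1). Cers4, another ceramide synthase, stood among the 12 genes of largest negative difference, at -2.60. Its highest value in the 24 cells was 0.334 CPM, and 33 of the 72 others reached 10 CPM. Aloxe3 differed by 0.54 over all 24 cells but by 0.07 without cells 46-1, 46-2 and 4-1.

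Proteases and their inhibitors had 8 of 20 genes higher by 1 or more and 1 lower, with a median of 0.27. After Tmprss11e came Tmprss4 (2.29), Plau, the urokinase that Serpinb2 inhibits (2.27), Klk8 (1.83), Klk10 (1.59), Slpi (1.45), Spink5, the inhibitor of epidermal kallikreins (1.19), and Plaur, the urokinase receptor (1.11). Spink5 differed by 0.62 without cells 46-1, 46-2 and 4-1. Tmprss11d differed by -1.79, although it had 493.0 CPM in cell 4-1. Among the other serpins of clade B, 1 of 8 was higher by 1 or more (Serpinb10, 1.63), 0 were lower, and the median was 0.91, or 0.43 without set 2 and 0.49 for the 32 highest cells. Serpinb5 (maspin) differed by 0.90 with a median of 336.7 CPM against 185.7 CPM. Desmosome genes had a median of 0.32 with 0 of 10 beyond 1, and tight junction genes a median of 0.13 with 1 of 12 higher (Cgn, 1.24).

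**Figure D3:**
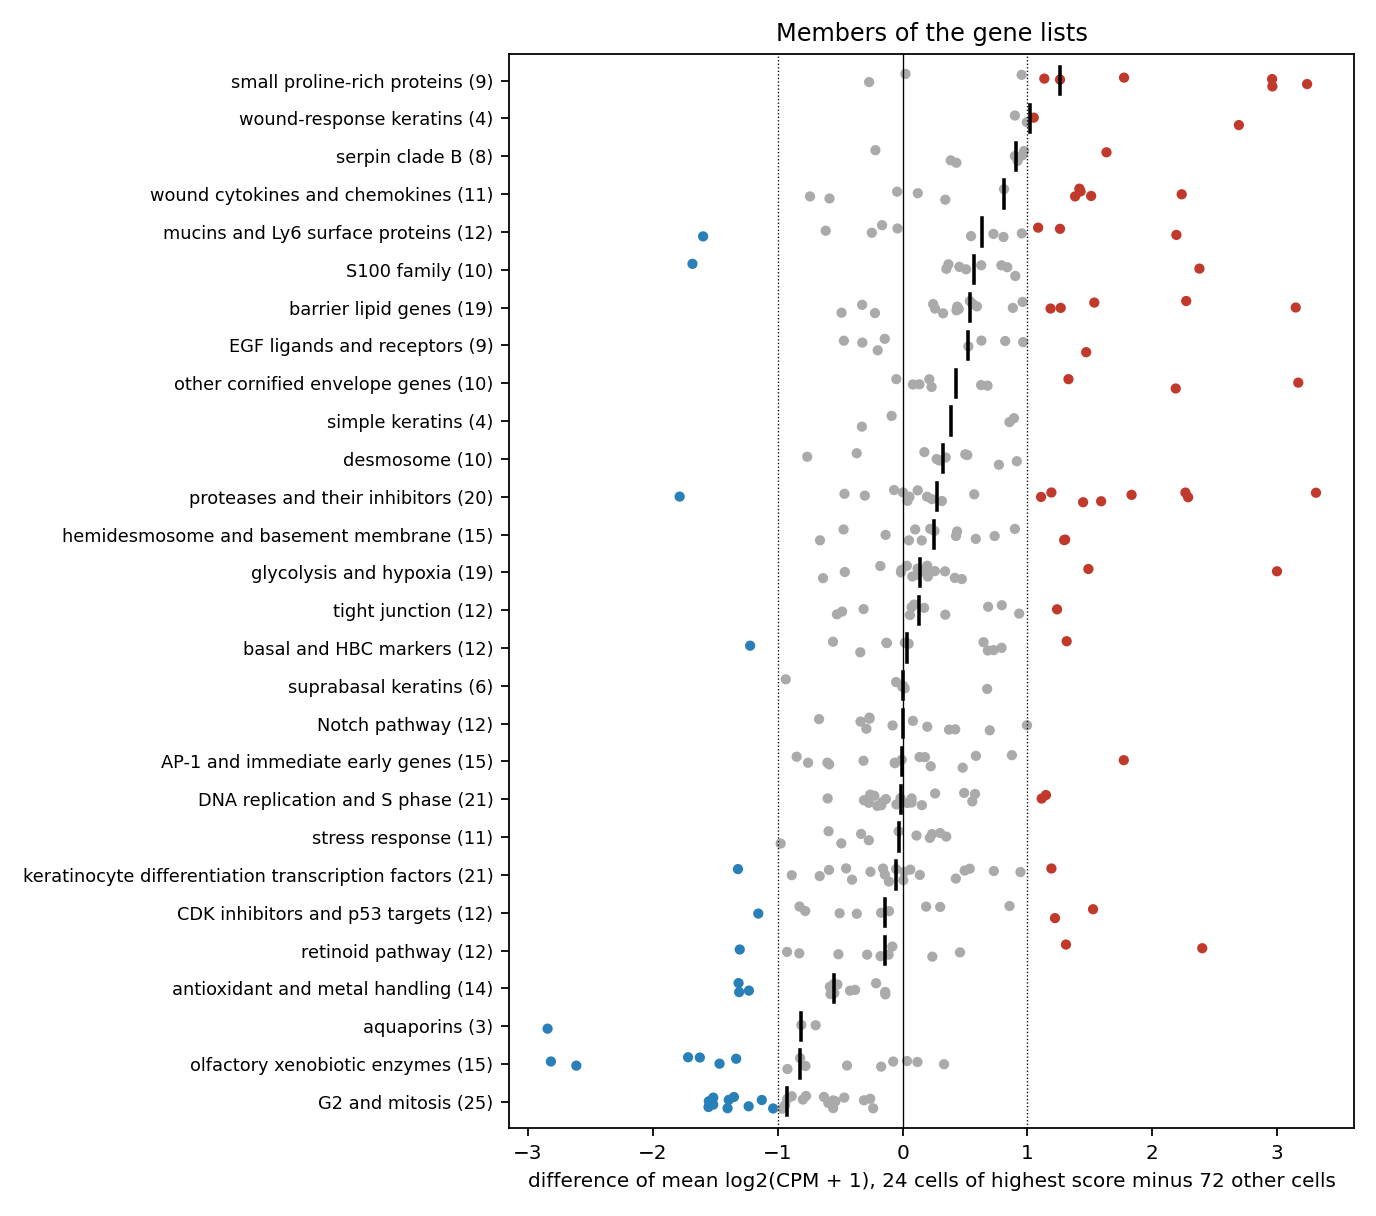
Difference of mean log2(CPM + 1) between the 24 high-score cells and the 72 others for each gene of the lists with 3 or more genes past the filter, with that number in parentheses, the list median as a black bar and dotted lines at -1 and 1. Red points are genes at 1 or more and blue points genes at -1 or less: the small proline-rich proteins lie furthest to the right by their median of 1.26, and the G2 and mitosis genes furthest to the left by their median of -0.92.

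Keratins of the wound response were higher while basal markers were not lower. Of 4 wound-response keratins that passed, Krt16 and Krt6b (1.05) were higher by 1 or more, Krt6a differed by 1.00, just below 1, and Krt17 by 0.90, with a list median of 1.02, or 0.60 for the 32 highest cells. Krt6b differed by 0.96 without cells 46-1, 46-2 and 4-1. Krt6a, the keratin of activated HBCs, had 2829 to 17548 CPM in the high-score cells and 23.5 to 10886 CPM in the others. Of the 12 basal and HBC markers, 1 was higher (Icam1, 1.31), 1 was lower (Ngfr, -1.22), and the median was 0.03. Trp63, which encodes p63, differed by -0.13, Krt5 by 0.02 and Krt14 by 0.79. The high-score cells thus kept a median of 203.3 CPM of Trp63 against 170.8 CPM in the others, with cell 46-2 as an exception at 1.14 CPM.

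Genes of basement membrane adhesion were not lower. The 15 hemidesmosome and basement membrane genes had a median difference of 0.26, with 2 higher and 0 lower by 1 or more. Col17a1, a transmembrane collagen of hemidesmosomes, differed by 1.29. Simple epithelial keratins had a median of 0.38 over 4 genes with 0 beyond 1: Krt19 differed by 0.89 and Krt18 by -0.33. Mucins and Ly6 surface proteins had a median of 0.64 over 12 genes, or 0.32 without cells 46-1, 46-2 and 4-1, with Gprc5a (2.19), Emp1 (1.26) and Ly6d (1.09) higher and Lypd2 (-1.60) lower. Without these cells Ly6d differed by 0.38 and Emp1 by 0.87. The S100 family had a median of 0.57 over 10 genes, with S100a7a higher and S100a1 (-1.68) lower, and S100a10 was above the median of the other cells in 23 of the 24.

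Transcription factors of keratinocyte differentiation were balanced around 0. Of the 21 that passed the filter, 1 was higher by 1 or more and 1 was lower (Ehf, -1.32), with a median of -0.05. Klf4 differed by 0.14, Grhl3 by 0.01, Zfp750 by 0.01 and Ovol1 by 0.94. The Notch pathway had a median of 0.00 over 12 genes with 0 beyond 1. AP-1 and immediate early genes had a median of -0.01 over 15 genes, of which Atf3 was higher (1.77). Over all genes 3.15% were higher and 2.46% lower, and single called members are not read as a result for their list. Retinoid pathway genes had a median of -0.14 over 12: Dhrs9, a retinol dehydrogenase, and Aldh1a3 (1.31), which makes retinoic acid, were higher, and Rdh10 (-1.30) was lower.

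Secreted signals of wounded epithelium were higher in part. Of 11 wound cytokines and chemokines that passed, 5 were higher by 1 or more and 0 lower, with a median of 0.81 (0.50 without set 5 and 1.39 without set 2): Il24 (2.24), Tnfaip3 (1.51), Cxcl16 (1.43), Cxcl1 (1.42) and Ptgs2, the inducible cyclooxygenase (1.38). Of 9 EGF ligands and receptors, Hbegf was higher (1.47) and the median was 0.53, which ranged from 0.32 without set 10 to 0.83 without set 11. Glycolysis and hypoxia genes had a median of 0.14 over 19, with Slc16a3 and Ndrg1 (1.49) higher, and stress response genes had a median of -0.03 over 11 with 0 beyond 1. The pair of H3.3 genes, H3f3a and H3f3b, differed by -0.16 and -0.26. Under spike-in scaling the H3.3 median moved from -0.21 to 0.03.

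Detoxifying enzymes were lower in the high-score cells. Of 15 olfactory xenobiotic enzymes that passed, 6 were lower by 1 or more and 0 higher, with a median difference of -0.82, and -0.94 without cells 46-1, 46-2 and 4-1. Adh7, an alcohol and retinol dehydrogenase, had 1.34 to 2606 CPM in the 24 cells around a median of 27.9 CPM, and 1.75 to 6743 CPM around a median of 336.8 CPM in the others, a difference of -2.61. Ces1d, a carboxylesterase, differed by -2.82, Aldh3a1 by -1.72, Cyp2f2 by -1.62, Gstm1 by -1.47 and Ugt2a1 by -1.33. Gsto1 differed by 0.33 and Gsta4 by 0.04, and 3 of the 15 were above 0.

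Antioxidant and metal handling genes were also lower: 14 of 14 differed in the negative direction, 3 by 1 or more, with a median of -0.55. These 3 were Gclm (-1.31) and Gclc (-1.31), the subunits of the enzyme that limits glutathione synthesis, and the quinone reductase Nqo1 (-1.23). Gclc differed by -0.94 without cells 46-1, 46-2 and 4-1. Gclm had 36.4 to 1066 CPM in the high-score cells, and 0 of the 24 reached the median of the others, 1145 CPM. For Nqo1, 1 of the 24 cells did. Under spike-in scaling the list median was -0.32. Of 3 aquaporins that passed, Aqp4 differed by -2.84, with a median of 1.09 CPM against 96.1 CPM, Aqp5 by -0.81 and Aqp3 by -0.70.

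Further genes of large negative difference were the transcription factors Otx2 (-2.72), which acts in anterior head development, and Epas1 (-2.61), the hypoxia-inducible factor HIF-2α. Otx2 had a median of 1.67 CPM in the high-score cells and 36.1 CPM in the others, and 2 of the 24 exceeded the median of the 72. Epas1 had medians of 11.2 and 82.9 CPM, and 1 of the 24 exceeded the median of the 72. The others were Crtc1 (-2.72), Cx3cl1 (-2.54), Lzts1 (-2.52), Trib2 (-2.47), Fzr1 (-2.40) and Mtus1 (-2.36). Over these 12 genes, Spearman's rho with the score was below 0 for 12 among the 72 other cells, with a median of -0.25. The 12 genes were likewise picked with groups formed by the score, so these values are a description.

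Genes of G2 and mitosis were lower by 1 or more for 10 of 25 genes and higher for 0, with a median of -0.92. The list mean was 5.04 ± 1.75 in the high-score cells and 5.96 ± 2.07 in the others, and 0 of the 24 cells with the highest mean of this list were high-score cells. Mki67, a marker of cycling cells, differed by -1.13, or -0.67 without cells 46-1, 46-2 and 4-1 and -0.95 without set 2. It had a median of 360.5 CPM against 508.7 CPM, and was under 10 CPM in 4 of the 24 cells (46-1, 4-1, 8-1 and 41-1) and in 2 of the 72. Without these 6 cells, 6 genes of the list were lower by 1 or more and the median was -0.38. The list median was -0.60 without cells 46-1, 46-2 and 4-1, -0.43 without set 2 and -0.22 when cells were compared within sets of 8, so that part of it moved with the sets, and the cause was not tested. Genes of DNA replication and S phase had a median of -0.02 over 21, or 0.48 without the same 6 cells, with Ccne2 (1.15) and Ccne1 (1.11), the cyclins of S phase entry, higher and 0 lower. Of 12 CDK inhibitors and p53 targets, Gadd45b (1.53) and Cdkn1a, which encodes p21 (1.22), were higher, Cdkn2b (-1.16) was lower, and the median was -0.14. Thus 20 of the 24 high-score cells had 10 CPM or more of Mki67, and the 4 below it included the 2 of highest score.

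**Figure D4:**
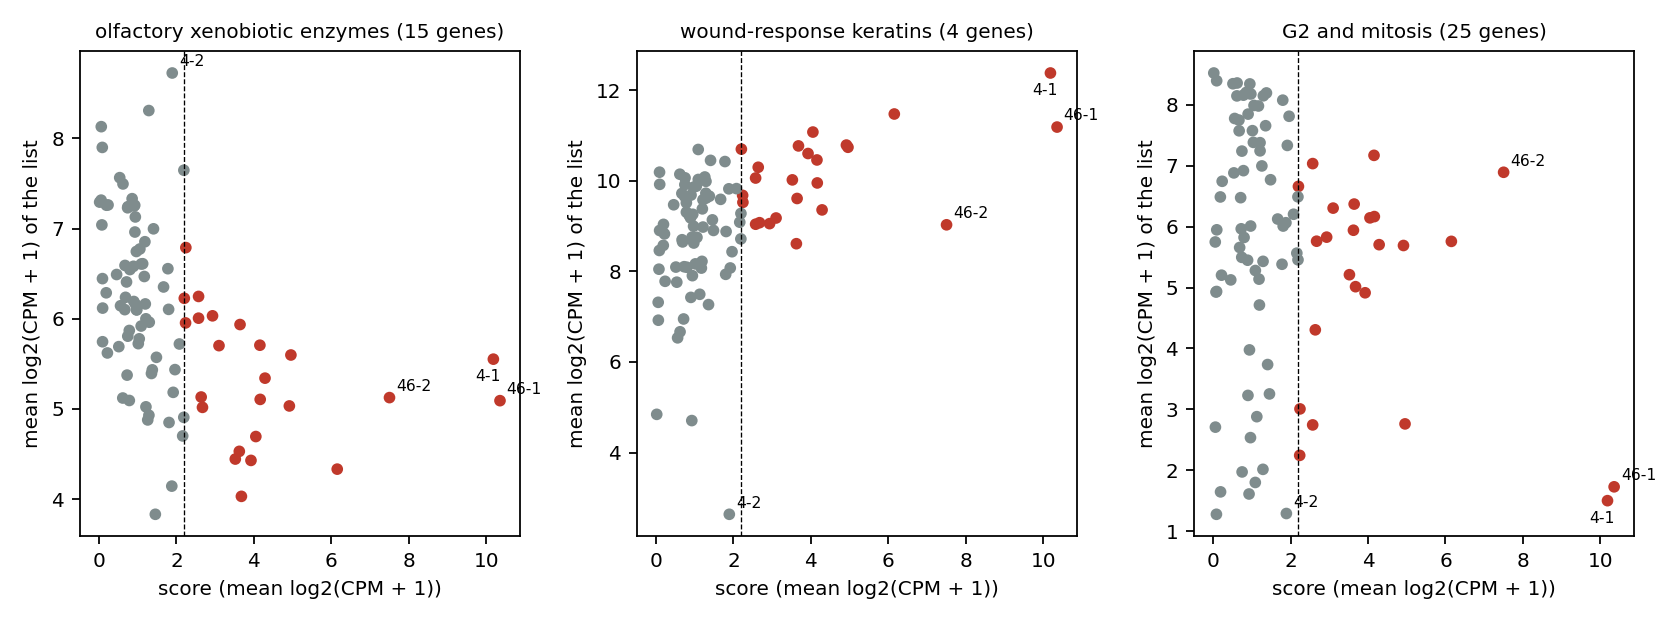
Mean log2(CPM + 1) of 3 gene lists (y axes) against the score (x axis, mean log2(CPM + 1) of the 6 genes) in 96 cells, with the 24 high-score cells in red, the others in grey, the cutoff dashed and both cells of pairs 4 and 46 named. High-score cells lie low for xenobiotic enzymes and high for wound-response keratins, and cells 46-1 and 4-1 lie at the foot of the G2 and mitosis panel, whereas 46-2 has a mean near 7.

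Other rankings of the 96 cells showed how far the score overlapped with them. High-score cells were 24 of all 96 cells, which is the share to set beside each count. The 24 cells highest in wound-response keratins included 14 high-score cells, and the 24 lowest included 0. The 24 highest in xenobiotic enzymes included 1 high-score cell (4.17%) and the 24 lowest included 13 (54.2%). The 24 highest in RNA content by spike-in included 10 and the 24 lowest included 2, and the part of RNA content in the differences was not tested. For basal and HBC markers these numbers were 8 and 6, for S phase genes 5 and 7, and for G2 and mitosis 0 and 8. Spearman's rho with the score over 96 cells was -0.57 for xenobiotic enzymes, 0.48 for wound-response keratins, 0.36 for RNA content, 0.08 for basal markers and -0.18 for G2 and mitosis.

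Sister cells of split pairs, which share a mother cell and a set, differed less uniformly than the groups at large. In the 8 split pairs the high cell exceeded its sister in 5 pairs for Plet1, 6 for Sbsn, 6 for Cers3 and 6 for Krt16. The mean of the small proline-rich proteins was higher in the high cell in 4 pairs and lower in 4, with differences from -2.91 in pair 4 to 1.99 in pair 22. For G2 and mitosis the mean was higher in 5 pairs and lower in 3, and for antioxidant genes higher in 3 and lower in 5. The mean of the xenobiotic enzymes was lower in the high cell in 5 pairs, by -2.97 in pair 3 and -3.17 in pair 4, and ranged from -0.99 to 0.32 in the other 6. The median member of that list thus differed by -0.93 on the mean over the 8 pairs but by -0.01 on the median over them. Kcnn4 was lower in the high cell in 6 of 8 pairs, against the direction of the comparison over all cells. The low sisters of split pairs were also compared with the 64 cells of pairs without a high-score cell. For 16 of the 20 genes of largest positive difference, their mean was closer to that of these cells than to that of their sisters. For 18 of the 20, the cells of pairs with both cells high exceeded the high cells of split pairs. These genes were picked as higher in the high-score cells, most of which came from pairs with both cells high. The low sisters were among the cells they were picked against. Both counts are therefore favoured by the selection and are given as a description. Sprr2a1 and Sprr2a2 were among the exceptions to the first count, with means of 9.41 and 9.50 in low sisters, 10.14 and 10.22 in their high sisters and 7.47 and 7.56 in the 64 cells.

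Some genes had the same sign in every split pair. Over the 14463 genes, 30 were higher and 46 lower in the high cell in 8 of 8 pairs. These genes were picked for their signs out of all genes tested, so they describe these 8 pairs and give no evidence that sisters differ in them. Those with the largest median differences were Prmt6 (4.47), Rab30 (4.26), Zfp719 (4.01), Macroh2a2 (3.59), Wincr1 (2.97) and Prpf6 (1.82) among the higher and Reep6 (-4.23), Abcb6 (-3.93), Pik3r3 (-3.74), Rai1 (-3.69), Cgrrf1 (-3.28) and Sgsm1 (-3.07) among the lower. Rab30, a Golgi GTPase, was also higher over all cells (1.66), as was Wincr1, a Wnt-induced long non-coding RNA (1.84), whereas Zfp719 differed by 0.77 and Cgrrf1 by -0.29. Of the 32 genes of largest difference over all cells, Otx2 was the one with the same sign throughout, lower in the high cell in 8 of 8 pairs by a median of -1.30.

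**Figure D5:**
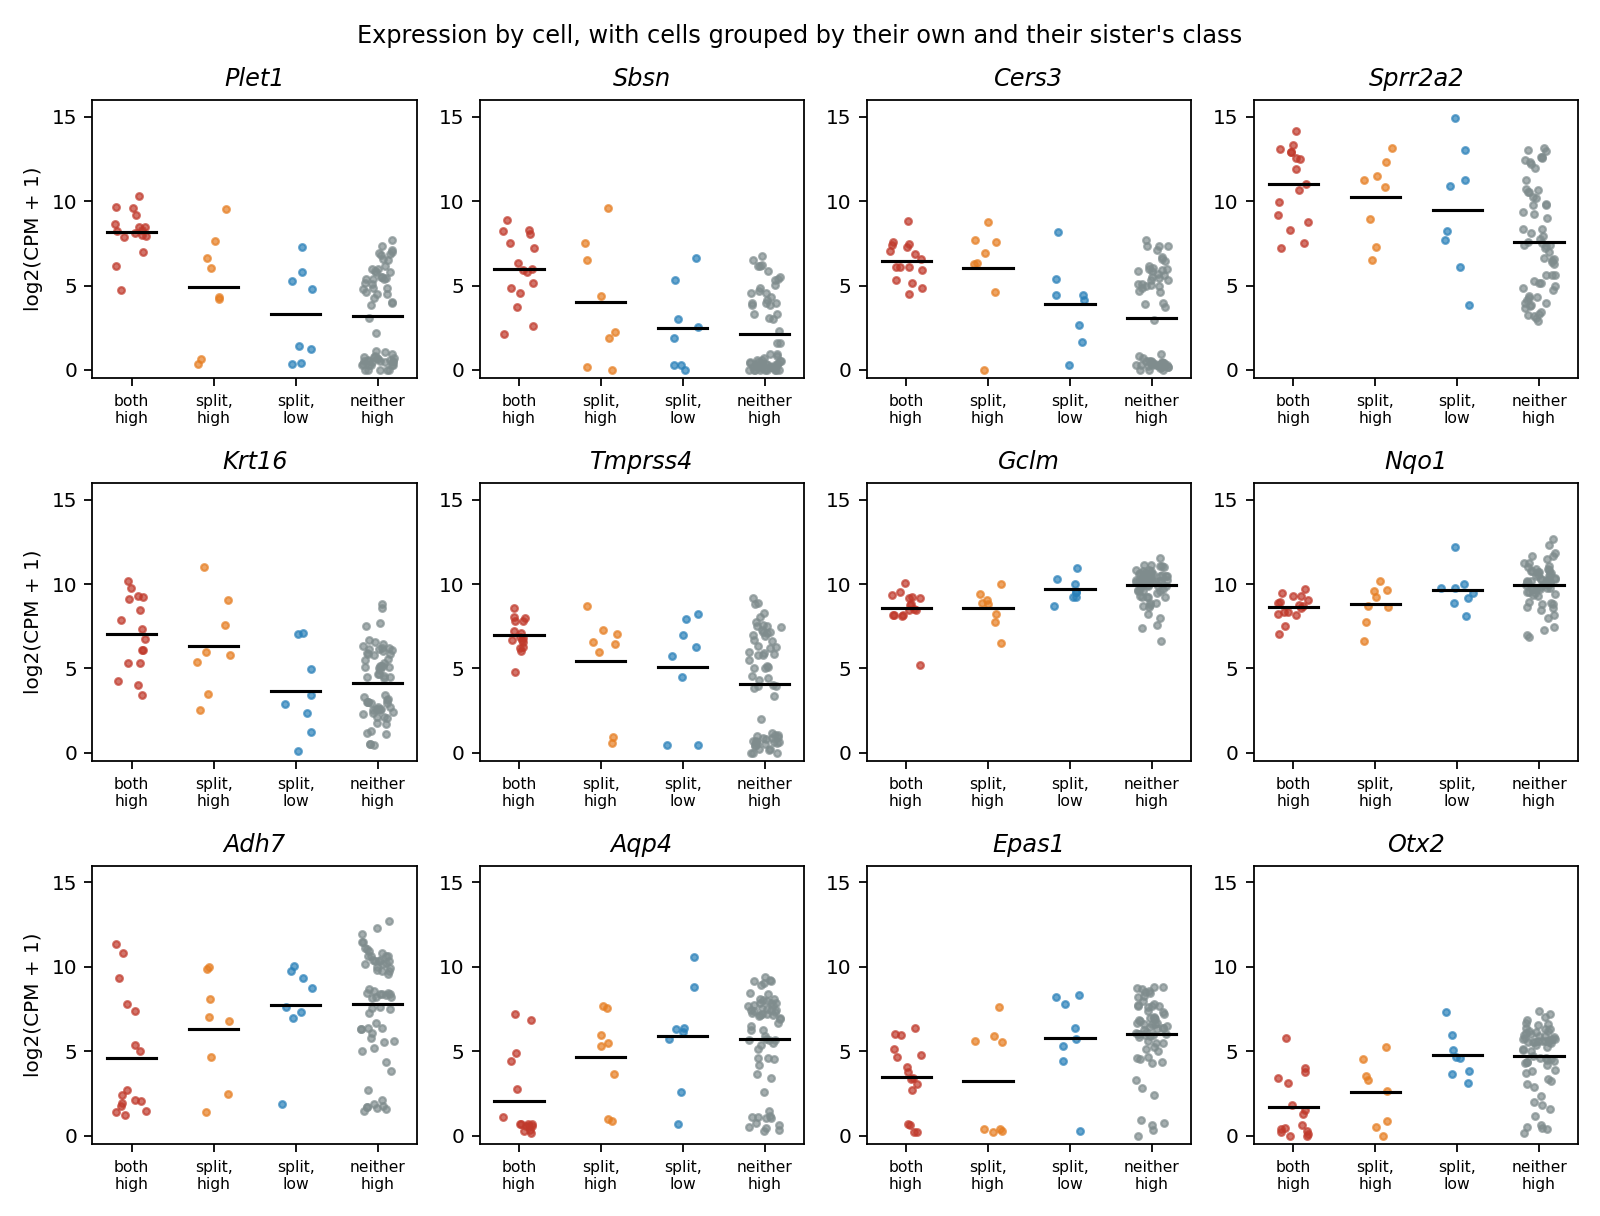
Expression (log2(CPM + 1)) of 12 genes in each cell, with cells grouped as both high (16 cells of 8 pairs), high and low cells of split pairs (8 each) and cells of pairs with neither high (64 cells), and bars at the means. For Plet1 the means step from 8.16 to 4.92, 3.31 and 3.20, and for Aqp4 they run the other way from 2.04 to 4.69, 5.90 and 5.75.

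Pair 4 was the most divided. Cell 4-1 carried 9433 CPM of Cnfn, 2588 CPM of Psca and 1329 CPM of Sprr3, where its sister 4-2 had 1.11, 74.1 and 5.62 CPM. Cell 4-1 also had the highest Krt6a (17548 CPM) and Krt16 (2089 CPM) of all cells, and 5398 CPM of Sprr1a. Cell 4-2 had the lowest Krt14 (17.9 CPM), Krt5 (175.2 CPM), Krt6a (23.5 CPM) and Krt17 (19.9 CPM) of the 96 cells, and the highest Sprr2a2 (30948 CPM) and Aqp4 (1531 CPM). Its Nqo1, at 4645 CPM, exceeded the 393.9 CPM of cell 4-1. Mki67 was low in both, at 2.83 and 3.11 CPM. The cells of this pair thus differed in basal keratins, detoxifying genes and the envelope genes they expressed. Cell 4-2 also had the highest mitochondrial share of counts of the 96 cells, 3.84%, where the median of the 72 cells was 2.07%. It had 11654 genes detected, where the lowest cell had 11403, and an RNA content by spike-in of 0.71 relative to the median cell. The part of cell quality in these differences was not tested.

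Pair 46 had 2 high-score cells that differed in kind. Both expressed Cnfn (2541 and 1005 CPM), Cpa4 (1111 and 650.9 CPM) and Tgm1 (1784 and 791.3 CPM). Sprr3 was at 1969 CPM in 46-1 and 0.987 CPM in 46-2, and Krt16 at 592.5 and 9.56 CPM. Trp63 was at 567.1 CPM in 46-1 and 1.14 CPM in 46-2, whereas Mki67 was at 1.85 and 558.1 CPM. In this 1 pair, the cell with more Cnfn, Cpa4, Tgm1 and Sprr3 was thus the one with more Trp63 and less Mki67. Ivl, another envelope gene, went the other way, at 0 CPM in 46-1 and 32.6 CPM in 46-2.

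Markers of other cell types were read in all cells to check what the high-score cells were. Of 11 globose basal cell and neuron markers, Tubb3 and Gap43 passed the filter, and the summed level of the list had a median of 30.2 CPM in the high-score cells (range 0 to 223.3) and 8.02 CPM in the others (range 0 to 242.5), with Kit at 0 in every cell. Of 8 sustentacular, gland and microvillous markers, Sox9 passed (1.00, or 0.69 without cells 46-1, 46-2 and 4-1), summed levels were 0 to 166.7 CPM and 0 to 144.1 CPM, and Cyp1a2, Ermn and Sec14l3 were at 0. Of 8 respiratory markers, Foxa1 passed (-0.44), summed levels were at most 26.8 and 115.4 CPM, and Scgb1a1, Muc5b, Muc5ac, Tekt1 and Dynlrb2 were at 0. None of 7 stromal and endothelial markers passed, with summed levels of at most 57.6 and 31.4 CPM and Dcn and Cdh5 at 0. Of 5 immune markers, Cd68, a lysosomal protein that is not specific to immune cells, passed (0.63), summed levels were at most 167.1 and 286.7 CPM, and Cd3e was at 0.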

How the data were processed

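The authors trimmed the reads (Trimmomatic 0.39), mapped intact mate pairs (STAR 2.7.11a) to GRCm38 plus the ERCC sequences under Ensembl release 100, and quantified them with StringTie 2.2.1. They deposited raw counts, which are not normalized, and a TPM table for each cell. The 92 ERCC transcripts were left out of CPM, and 55487 genes remained. Genes that reached 10 counts in 10% of the cells were compared as the difference of mean log2(CPM + 1), with a pseudocount of 1, and called at 1 or -1. No molecular identifiers were used, so counts include PCR copies.

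The members and the 34 gene lists were chosen with earlier results of these data known. The genes named were the score genes, the 20 of largest positive and 12 of largest negative difference with a mean of at least 10 CPM in the higher group and a standard symbol, 6 in each direction that differed in most split pairs, list members, and 6 genes named in any case (Trp63, Krt5, Krt14, Mki67, H3f3a and H3f3b). Results for some list members are not reported here. Genes singled out in the accounts of pairs 4 and 46 were chosen after their values were seen. The 12 sets of 8 cells come from the deposited file labels. Spike-in factors were the median of ratios over 22 ERCC transcripts counted in all cells. Python 3.11.15, numpy 2.4.6, pandas 2.3.3 and matplotlib 3.10.9 were used, with R 4.3.3, DESeq2 1.42.0 and edgeR 4.0.16 for alternative size factors only. The calculation was tested on simulated data. Aligner and counter settings beyond these are not given in the sources used here.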

Additional observations from a re-analysis of the deposited data

Results flagged for a closer look

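Pair 4 lay far from the other 7 split pairs in 2 of the 6 within-pair measures examined by Dixon's criterion for groups of 8, which chance alone meets in about 1 of 20 groups. The first is the difference in score, 8.29 against at most 3.00 in the other pairs. The score chose the high cells and the split pairs, so this value is a description of the selection and supports nothing. The second is the difference in the mean of the wound-response keratins, 9.75 against at most 2.09. It rests on 1 pair, and it is cell 4-2, with the lowest Krt6a and Krt17 of all cells, that lies far from the others.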

How the results depend on the processing

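The number of pairs with both cells high was 7 to 9 under the 10 alternative scores, and 19 to 24 of the 24 cells were kept. Genes higher and lower by 1 or more numbered 76 and 43 with a pseudocount of 10, 774 and 685 against the 24 lowest cells, and 1269 and 1604 between the sisters of split pairs, where 8 cells stand on each side. Taking the 16 highest cells gave 770 higher genes, and a 2-fold ratio of mean CPM gave 1219 lower genes. Leaving out each set of 8 gave 431 to 602 higher and 362 to 485 lower. On the mean over the 8 split pairs, the direction between sisters turned for 2 lists and 2 genes. These were the small proline-rich proteins (median -0.44), EGF ligands and receptors (-0.77), Kcnn4 (-1.29) and Mki67 (0.44). On the median over the pairs the values were 0, -0.14, -2.28 and 0.23, and Mki67 was higher in 4 pairs and lower in 4. The cause was not tested. No other list median beyond 0.5 changed sign under the 25 settings. Among the 56 genes followed singly, no other gene beyond 1 did. The remaining list members were not followed singly under these settings. The median of G2 and mitosis was -0.92 over all cells and -0.22 within sets of 8. Leaving out cells 46-1, 46-2 and 4-1 or pairs 46 and 4, and centring the spike-in values, were chosen after seeing the data. With 1 sample and no named mice, the spread between animals is unknown. No test was run, so no replicate block was fitted, and the pairing of sisters entered through the comparison within split pairs.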
